A study of Mus musculus with 2 samples.

Results

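CpG-poor promoter regions are stretches of accessible chromatin at protein-coding transcription start sites (TSSs) whose DNA holds few CpG dinucleotides. Peaks of the authors' thresholded list that overlapped were joined, and the strongest peak of each joined region gave its summit and signal value. A region was kept when that summit lay within 1000 bp of a TSS and the mm10 sequence from 250 bp before to 250 bp after it had an observed/expected CpG ratio under 0.4. The ratio is the number of CpGs divided by the number that the C and G content alone would give. Of 26090 regions, 11022 were promoter regions and 1515 of these were CpG-poor, which is 13.7% of the promoter regions and 5.81% of all regions. A further 8249 promoter regions, called CpG-rich here, had a ratio of 0.6 or above, and 1258 lay between the thresholds. The CpG ratio and the distance to a TSS chose the regions, so the ratio is described and not tested. No limit on signal was set here, but the strongest peak fixed the summit at which both were read. Width, neighbouring regions and motifs were not used in the choice.

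The regions come from an ATAC-seq experiment, in which a transposase cuts open chromatin, on activated regulatory T-cells of the male mouse strain Foxp3CreERT2 x Rosa26YFP at an age of 4 months. The Foxp3CreERT2 allele places a tamoxifen-inducible Cre under the Foxp3 gene, and Rosa26YFP is a reporter that Cre switches on. There were 2 libraries, technical replicates 1 and 2 of biological replicate 1, and no control group. The labels trace the cells to a bone marrow haematopoietic cell and do not say how they were activated or sorted. All peak lists trace to 1 alignment, and the sources do not say which library or libraries it holds. There is thus no value per library, no spread between animals and no P-value below. The 95% Wilson intervals given with shares reflect counting error over regions or genes alone, and the read depth is unknown. Of the markers set for the cell type, Il2ra, Ctla4 and Ikzf2 among 5 regulatory T cell genes and Cd3e, Cd3d, Cd3g and Lck among 5 annotated T cell genes had a region at a TSS. None of the 3 B cell, 3 myeloid, 2 NK or 3 erythroid markers did. For Cd3d the TSS was a later one of the gene.

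In mammals most CpGs are methylated and have been lost over evolution, except in CpG islands, which cover the promoters of nearly all housekeeping genes and tend to lack methylation and to be open in most cells. Promoters outside islands belong mostly to genes used in 1 or a few tissues, and they rely more on sequence-specific factors to become open. In T cells such factors include members of the ETS, RUNX, AP-1 and IRF families.

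The difference in sequence is easiest to see side by side. The first line is the accessible promoter of Gzmb, which encodes the cytotoxic protease granzyme B. The second is the strongest CpG-rich promoter region outside exons that holds an ETS site with a CpG, at Ttc1, which encodes a tetratricopeptide protein. Both are printed 5′ to 3′ on the strand of the gene, which is the minus strand for both, with every CpG in capitals; bases of annotated exons were left out of all printed sequences.
Gzmb: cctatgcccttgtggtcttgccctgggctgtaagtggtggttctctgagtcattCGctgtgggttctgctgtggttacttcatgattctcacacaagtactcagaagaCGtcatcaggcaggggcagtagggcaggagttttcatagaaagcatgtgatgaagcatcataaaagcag
Ttc1: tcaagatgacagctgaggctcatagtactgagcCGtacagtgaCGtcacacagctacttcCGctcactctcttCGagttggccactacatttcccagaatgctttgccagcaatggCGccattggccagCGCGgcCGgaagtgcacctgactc
The Gzmb stretch (chr14:56262261-56262437) holds 2 CpGs in 177 bp, and its whole window holds 5, at a ratio of 0.15. The Ttc1 stretch (chr11:43748009-43748161) holds 8 CpGs in 153 bp, and its window holds 31, at a ratio of 0.91. Both summits lie upstream of the TSS, at -87 bp in Gzmb and -63 bp in Ttc1, and the signal values were 17.2 and 32.0.

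The next lines show 5 CpG-poor promoters with matches of the ETS, RUNX and IRF motifs in capitals, chosen after their values were seen to illustrate the motif results below. Fntb encodes a farnesyltransferase subunit, Havcr2 the inhibitory receptor TIM-3, Runx3 a RUNX factor, and Rsad2 and Ifit1bl2 are interferon-induced genes or relatives of them. Capitals mark CAGGAAGT (ETS without CpG) and AAANNGAAA (IRF) in Fntb, TGTGGTT (RUNX) in Havcr2 and Runx3, and AAANNGAAA in Ifit1bl2, on either strand. In Rsad2 they mark AAANNGAAA, TGANTCA (AP-1) and TATAAA.
Fntb: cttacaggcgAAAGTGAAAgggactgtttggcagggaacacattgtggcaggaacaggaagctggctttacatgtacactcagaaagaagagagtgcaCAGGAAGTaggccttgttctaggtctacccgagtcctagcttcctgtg
Havcr2: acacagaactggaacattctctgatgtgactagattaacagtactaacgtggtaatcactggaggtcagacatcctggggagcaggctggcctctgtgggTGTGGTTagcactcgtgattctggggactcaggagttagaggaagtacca
Runx3: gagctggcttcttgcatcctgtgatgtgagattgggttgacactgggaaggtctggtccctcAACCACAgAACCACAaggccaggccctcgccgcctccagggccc
Rsad2: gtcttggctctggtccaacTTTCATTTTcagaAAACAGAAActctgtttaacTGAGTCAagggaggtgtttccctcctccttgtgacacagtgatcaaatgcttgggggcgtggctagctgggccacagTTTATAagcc
Ifit1bl2: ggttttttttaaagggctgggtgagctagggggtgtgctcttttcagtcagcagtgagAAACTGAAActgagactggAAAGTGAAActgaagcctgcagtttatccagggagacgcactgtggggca
These are chr12:76886912-76887057, chr11:46454785-46454934 and chr4:135120448-135120553 on the plus strand, and chr12:26456453-26456591 and chr19:34640744-34640870 on the minus strand, all of mm10. The summit lay outside the gene in 4 of them and in an intron of Fntb, before one of its later TSSs. Runx3 holds 2 RUNX matches 1 letter apart in a promoter with a signal value of 24.6. Rsad2 and Ifit1bl2 hold 2 IRF matches each, and Rsad2 also holds a TATA sequence read on the opposite strand.

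Promoter regions fell into a broad group of high CpG ratio and a long tail of low ratio. Over the 1515 CpG-poor regions the ratio had a median of 0.25 (quartiles 0.17 and 0.32), and the window held a median of 7 CpGs against 41 in CpG-rich regions. GC content, which the ratio corrects for, was also lower, with medians of 50.5% and 63.5%. At the threshold itself, Acsl5 (0.3983), A630089N07Rik (0.3986) and Parp11 (0.3993) were the last inside, with signal values of 11.2, 22.5 and 18.5. Robo3 (0.4002), Hfe (0.4004) and Msl3 (0.4004) were the first outside, with 11.5, 15.5 and 14.3.

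**Figure D1:**
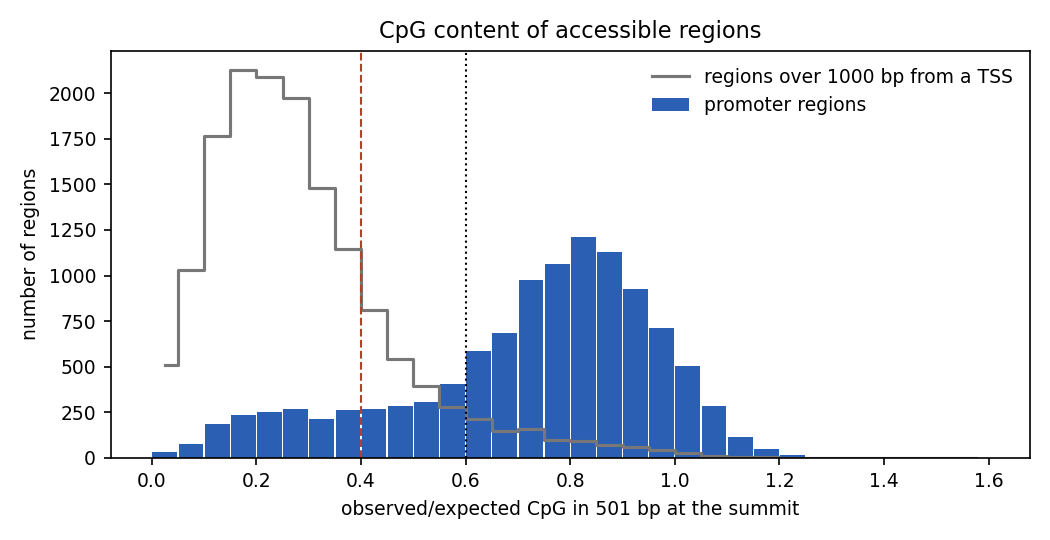
Number of regions (y) by observed/expected CpG around the summit (x), for promoter regions (bars) and for regions over 1000 bp from a TSS (grey line); the dashed line is the threshold of 0.4 and the dotted line that of 0.6. The 1515 CpG-poor promoter regions lie left of 0.4, where most regions away from promoters also lie.

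CpG-poor promoter regions were weaker and narrower than CpG-rich ones. The median signal value was 11.4 (quartiles 8.21 and 15.9) against 16.1 (quartiles 11.96 and 20.2). The quartile ranges overlap, so the classes differ in their middle and not in every region. Only 104 members, or 6.87% (5.70% to 8.25%), reached the top 10% of all regions by signal, against 16.4% of CpG-rich regions. The median width was 561 bp against 889 bp. More than 1 summit was listed in 44.95% (42.5% to 47.5%) of CpG-poor and in 80.2% (79.3% to 81.1%) of CpG-rich regions. A global irreproducible discovery rate (IDR, the authors' measure of how repeatable a peak's rank is between 2 inputs) of 0.01 or below was reached by 73.1% and 91.4%. In these measures the members lay nearer to the 12122 CpG-poor regions away from promoters, whose median signal value was 12.5, whose median width was 514 bp and of which 34.8% had more than 1 summit.

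Members were also narrower at matched signal. Among regions with a signal value from 12 to below 16, the 315 CpG-poor regions had a median width of 617 bp and the 1979 CpG-rich regions one of 959 bp. More than 1 summit was present in 51.4% and 84.8% of them. The same order held in all 6 ranges of signal compared, from 3 to below 6 (346 and 448 bp) to 20 to below 30 (714 and 854 bp). Among summits within 100 bp of a TSS and at 50% to 55% GC, the median signal value was 13.8 over 190 CpG-poor and 18.9 over 438 CpG-rich regions. At 40% to 45% GC the medians were 15.9 and 16.7, the latter over 16 regions only.

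Summits of the members were spread more widely around the TSS. The CpG window was centred on the summit, so the position of a summit also entered its class. The distances below are therefore not independent of the class. The median distance was 206 bp, against 47 bp for CpG-rich regions, and 40.1% (37.6% to 42.6%) against 73.8% (72.9% to 74.7%) lay within 100 bp. A further 33.7% of members lay over 500 bp away, where 3.65% of CpG-rich regions lay. The listed region covered the TSS itself in 58.9% of members and in 95.2% of CpG-rich regions. Signal declined with distance in both classes. Within 50 bp of the TSS the median signal values were 13.2 and 16.8, and beyond 500 bp they were 9.66 (quartiles 7.05 and 13.4) and 10.1 (quartiles 7.02 and 13.9). The 2 classes thus differed in signal near the TSS and were close to each other at the edge of the promoter window.

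**Figure D2:**
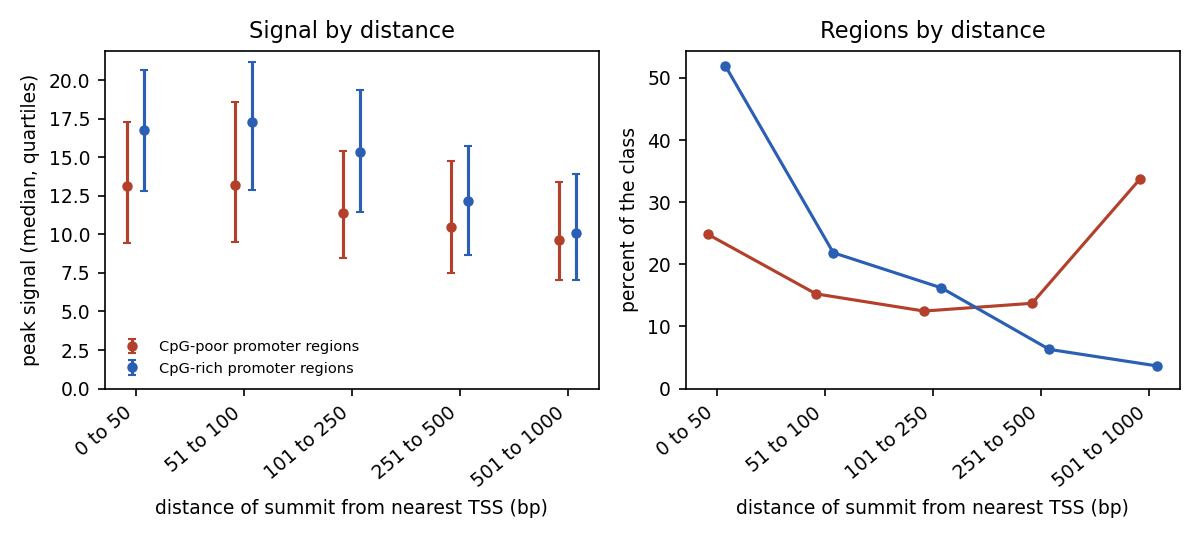
Left, median signal value with quartiles (y) by distance of the summit from the nearest TSS in bp (x) for CpG-poor and CpG-rich promoter regions; right, the percent of each class at each distance. The CpG-poor medians are below the CpG-rich ones at each distance, and 33.7% of CpG-poor regions lie over 500 bp away against 3.65% of CpG-rich regions.

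Many members lay at later TSSs of their gene. The nearest TSS was over 1000 bp from the most upstream TSS in 797 of 1515 members (52.6%, 50.1% to 55.1%) and in 10.8% of CpG-rich regions. It was the TSS of a principal transcript in 35.2% and 62.7%. The summit lay in an intron of the nearest gene in 48.2% of members and in 12.9% of CpG-rich regions, and outside the gene in 27.9% and 53.4%. Members at later TSSs had the same median signal value, 11.4, as the 718 members at or within 1000 bp of the most upstream TSS, and a median width of 532 bp against 588.5 bp. Whether transcription starts at these later TSSs in these cells was not tested.

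Read from genes to regions, most CpG-poor promoters had no region in these cells. The sequence at the most upstream TSS was CpG-poor in 8568 of 21938 protein-coding genes, and 721 of them (8.41%, 7.85% to 9.02%) had a region within 1000 bp. Of 10749 genes with a CpG-rich TSS, 74.9% (74.0% to 75.7%) had one, and of the 2621 between, 35.02%. Olfactory and vomeronasal receptor genes, which are large families mostly silent outside sensory neurons, are many among them; without them 10.1% of 7114 CpG-poor genes had a region. TATAAA, the core of the TATA box, started 40 to 20 bp upstream of the TSS in 4.65% of all CpG-poor genes. It did so in 7 of the 721 with a region, or 0.971%, beside 0.619% of all genes with a region. By the nearest TSS it did so in 13 of the 1515 members (0.858%) and in 0.726% of all promoter regions.

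Gene lists of T cell receptors, signalling and immune effectors held many accessible CpG-poor promoters. Each gene was given the class of its strongest promoter region, and a region was given to the gene of its nearest TSS. Of the 9548 genes with a promoter region, 962 were CpG-poor by this measure, a background of 10.1%. The T cell receptor complex and coreceptors had 6 of 6 genes with a region in the class, T cell surface and adhesion receptors 20 of 23, cytotoxic genes 8 of 9, cytokines 10 of 13 and proximal T cell receptor signalling 18 of 24. Cell cycle genes had 0 of 27, housekeeping genes 0 of 16, ribosomal protein genes 0 of 70, and subunits of respiratory complex I 0 of 35. These counts rest on the strongest region, and a weaker CpG-poor region lay at Mcm5 (signal value 11.9) and at Rps14 (9.63). Regions at later TSSs are counted too. Of the 8 genes of the receptor complex list, all CpG-poor at the most upstream TSS, 5 had a region within 1000 bp of it. The lists were chosen with earlier results of these data known, and these counts are a description.

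**Figure D3:**
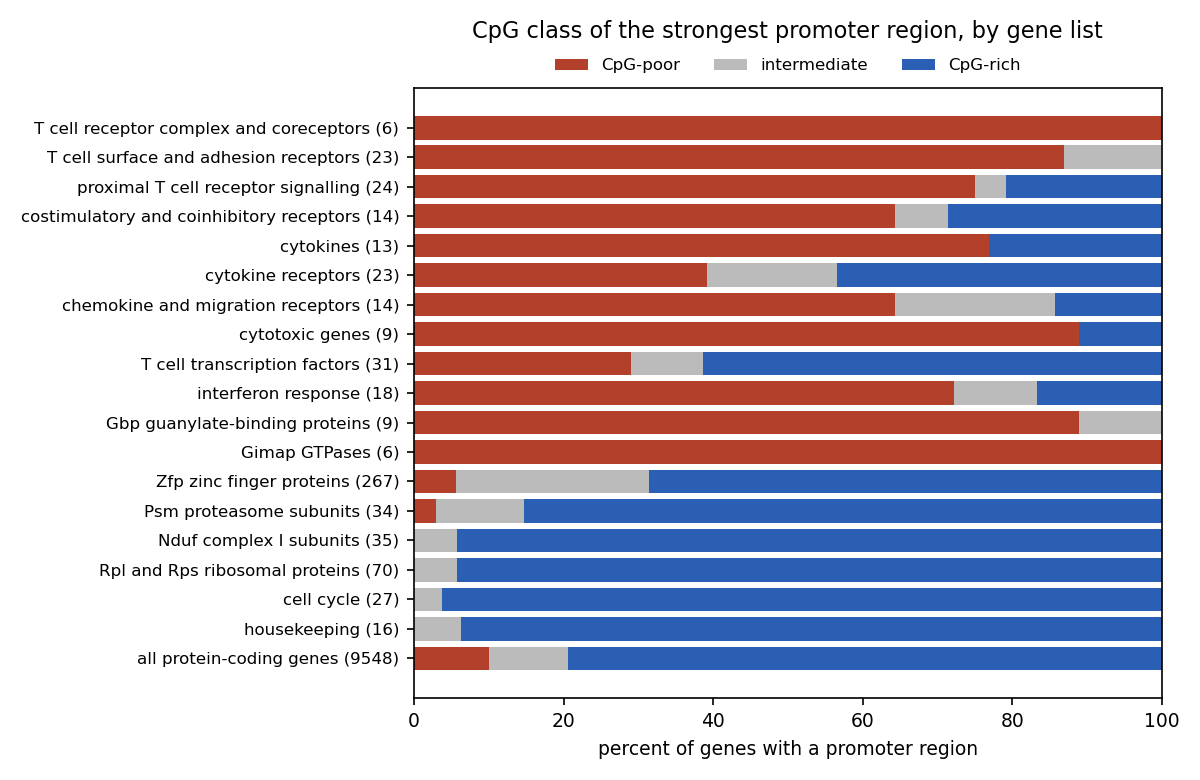
Percent of genes with a promoter region (x) whose strongest one is CpG-poor, intermediate or CpG-rich, by gene list (y), with the number of genes in brackets. T cell surface receptors are CpG-poor in 20 of 23 genes and T cell transcription factors in 9 of 31, cell cycle genes in 0 of 27, and all genes together in 10.1%.

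Among the receptor complex genes, Cd3g had a signal value of 17.3, with its summit at -32 bp from the TSS and a CpG ratio of 0.12. Its neighbours Cd3e (16.5) and Cd3d (14.9), which encode the other CD3 chains, had their summits 265 and 713 bp downstream of the nearest TSS. The Cd3d summit, at chr9:44986665 in an untranslated exon, was near a later TSS. The Cd3d gene runs from 44981786 to 44987339 on the plus strand. Cd247, the CD3 zeta chain, had a value of 11.9 and 10 distal regions, meaning regions over 1000 bp from every TSS and nearest to this gene within 100 kb. Cd8b1, a chain of the CD8 coreceptor of other T cells, had a promoter region at 11.4, while Cd8a and Cd4 had none by this rule. Cd4 had 1 distal region with a signal value of 17.7.

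Surface receptors ranged from 18.3 at Itgal, the alpha chain of the integrin LFA-1, to 5.90 at Cd27, a costimulatory receptor, with a median of 9.76. Itgb2, the partner chain of Itgal, had 15.6. Cd226 stood at 13.5 with a ratio of 0.04, close to free of CpG, and Cd5 (9.39), Cd2 (8.87) and Ptprc (8.63) were in the lower part of the list. The Cd2 value is that of a region with its summit in an intron. A second CpG-poor region of Cd2, with its summit at -24 bp from a TSS, had 5.15. The 3 genes outside the class were intermediate, namely Cd44 (ratio 0.41), Cd96 (0.43) and Slamf7 (0.46).

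In proximal signalling, Lat, the adaptor that links the receptor to downstream enzymes, led with 20.8, followed by Fyb (19.5) and the kinase Txk (19.4). The kinases Zap70 (14.1) and Lck (12.2) stood in the middle, and Sla (7.22) was lowest. All 18 of these genes had at least 1 distal region, beside 59.9% of all 962 genes with a CpG-poor strongest promoter region. Fyn (ratio 0.82), Plcg1 (0.81), Rasgrp1 (0.88), Bcl10 (0.79) and Malt1 (0.73) of the same pathway had CpG-rich strongest promoter regions. Fyn and Plcg1 also had weaker CpG-poor ones, with signal values of 6.31 and 7.05.

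Costimulatory and coinhibitory receptors split, with 9 CpG-poor of 14. Tnfrsf13b (16.7), Tnfrsf4, which encodes OX40 (15.5), and Cd28 (15.3) were the strongest, and Icos had 12.1 and Tigit 11.5. Pdcd1, the PD-1 gene, had 7.26 and Ctla4 had 6.24. Ctla4 nevertheless had 12 distal regions, the strongest at 16.01. Tnfrsf9, Cd200, Cd200r1 and Vsir were CpG-rich by their strongest promoter region, but Tnfrsf9 also had 4 CpG-poor ones.

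All 10 cytokine genes in the class had a distal region, beside 59.9% of all 962 genes. Tnfsf10, which encodes TRAIL, had 20.2, Fasl 17.2, Il16 15.5, Tnfsf14 13.2 and Tnfsf11 12.9. Ifng had 10.7 with 9 distal regions, the strongest at 22.1. Ltb had 9.41, Il2 8.43, Tnfsf8 7.44 and Lta 7.12. The Il2 summit lay at -425 bp from the TSS. Il10, a main effector cytokine of regulatory T cells, had no promoter region and 4 distal ones, the strongest at 19.8. Areg, Csf1 and Tgfb1 had CpG-rich promoter regions.

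Of the cytokine receptors, 9 of 23 were in the class (39.1%, 22.2% to 59.2%). They included the 3 chains of the interleukin-2 receptor: Il2rg with 16.6, Il2rb with 12.6 and Il2ra, the chain that marks regulatory T cells, with 10.03. The others were Tgfbr2 (13.8), Il12rb2 (10.3), Il12rb1 (8.95), Il18r1 (8.85), Il21r (8.27) and Il7r (5.36), the last of which is low on regulatory T cells. The 10 CpG-rich receptor genes included Ifnar1, Ifngr1, Il6st and Il4ra, which are expressed in many tissues.

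Of 14 chemokine and migration receptors, 9 were CpG-poor, within a narrow range from 8.38 (S1pr4) to 13.9 (Gpr18). Ccr4 had 13.9, Ccr7 12.5, Cxcr6 12.2, P2ry10 9.30, Cxcr5 8.77 and Ccr8, a receptor of activated regulatory T cells in tissues, 8.73. The 8 CpG-poor cytotoxic genes ranged from 7.93 (Srgn) to 18.0 (Prf1, the perforin gene), with Gzmb at 17.2, Gzma at 17.0 and a median of 14.2.

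Of 31 transcription factors of T cells with a promoter region, 9 were CpG-poor (29.0%, 16.1% to 46.6%) and 19 CpG-rich. Runx3 was the strongest of the 9, at 24.6, followed by Batf at 14.1. Satb1 (11.5), Foxp1 (10.5) and Runx1 (10.5) came next, and Nfatc2 (10.5), Stat4 (9.98), Ikzf4 (6.79) and Nfatc1 (6.17) were the rest. All 9 had distal regions, with a median of 6. Foxp3, the lineage factor of these cells, had no promoter region by the nearest-TSS rule, and 1 distal region was given to it. The sequence at its most upstream annotated TSS was CpG-rich (ratio 0.76). That ratio describes this TSS alone and not any later TSS of Foxp3.

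Interferon-response genes had mostly CpG-poor promoters. Of 18 with a promoter region 13 were CpG-poor, led by Rsad2 (25.1), which encodes the antiviral protein viperin, Xaf1 (18.1) and Oasl2 (17.4), and 5 of the 13 had a distal region, beside 59.9% of all 962 genes. Their median signal value was 13.4, beside 13.5 over all 962 genes. Gene families defined by name after their values were seen were also in the class: 13 of 13 Ifi and Ifit genes with a promoter region were CpG-poor, 3 of 3 Apol genes and 9 of 35 Trim genes. The 9 Trim genes had a median of 23.2, with Trim30d at 28.9, Trim21 at 28.6 and Trim12c at 28.5. Trim30a and Trim30d are close copies, identical at 459 of 489 letters of their windows, so reads could be shared between them.

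Other families varied. All 6 Gimap GTPase genes with a promoter region, which are lymphocyte survival genes in 1 cluster, were CpG-poor, at 5.99 to 15.6. Among 267 zinc finger genes named Zfp, 15 were CpG-poor, or 5.62% (3.43% to 9.06%) beside 10.1% of all genes, and these had a median of 24.2. Psmb10, the immunoproteasome subunit, was the 1 CpG-poor gene among 34 proteasome genes (2.94%), at 14.9. Of 1135 olfactory receptor genes 6 had a promoter region and 5 of these were CpG-poor, led by Olfr433 at 22.6.

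Genes better known from other cells were few. Ebf1, a B cell factor, had a CpG-poor promoter region at 10.03, and no other gene of the B cell, myeloid, NK or erythroid lists was in the class. Klr lectin receptor genes had none among 26. Genes of the H2 complex, listed after their values were seen, had 8 CpG-poor of 16, among them the MHC class II genes H2-Aa (22.6), H2-Ab1 (15.03), H2-Ob (13.2) and H2-Eb1 (11.2), which professional antigen-presenting cells express. H2-DMb2 (14.4) was also among the 8. The 4 class II genes named first were picked after their values were seen, and the share with NF-Y over all 8 is not given here. All 4 held an NF-Y match, beside 9.8% of all members, and H2-Aa also held TGACGTCA, beside 1.25% of all members. The sequence is that of chr17:34287829-34288009, minus strand, with both in capitals.
H2-Aa: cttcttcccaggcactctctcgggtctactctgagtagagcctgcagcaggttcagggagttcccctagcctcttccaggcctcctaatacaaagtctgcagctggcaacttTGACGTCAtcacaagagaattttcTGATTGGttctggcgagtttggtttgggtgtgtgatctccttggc
Of the B cell and myeloid lists, Ebf1, Cr2 (intermediate), Pax5 and Cebpa (both CpG-rich) had promoter regions. Distal regions were also given to Cr2 (18.3), Cd22 (14.9), Cd79b (14.3), Jchain (10.3), Pax5 (14.3), Itgam (19.2), Mpo (19.4), Fcgr3 (up to 15.8), Adgre1 (10.5) and Ebf1. Of the NK, erythroid and platelet lists, Itga2b had a CpG-rich promoter region (18.5). Distal regions in those lists were given to Klrb1c (8, up to 14.9), Cd244a (10.8), Eomes (13.4), Klf1 (14.6) and Alas2 (13.35). The part of other cells in the class II regions was not tested.

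The members were clustered in places. The stretch with the most members, with gaps of at most 50 kb, lay on chromosome 19 from 34500785 to 34641105 and held 9 CpG-poor and no other promoter regions, at Lipa, Ifit2, Ifit3, Ifit1bl1, Ifit3b and Ifit1bl2. On chromosome 6, 48646841 to 48771315, 7 lay in the Gimap cluster, and on chromosome 7, 104244160 to 104370119, 6 at Trim34a, Trim5, Trim12a, Trim12c and Trim30b, with a median signal value of 18.4. A further 6 lay within Sfi1 on chromosome 11 with values from 3.39 to 6.51. In all, the 1515 regions lay nearest to 1321 genes, of which 160 had 2 or more and 483 also had a CpG-rich promoter region.

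The strongest member was Gm20594 (41.6), and 277 bp of its region aligned to the mitochondrial genome at 92.8% identity. No other member aligned, and the part of mitochondrial reads in its signal was not tested. Next came Nckap1l (32.7), a haematopoietic regulator of actin, Fggy (31.9), Tpp1 (30.7), 4930550C14Rik (29.7), Fntb (29.6), Celsr2 (29.3), Nudt13 (29.2), Zc4h2 (29.1) and Golph3l (29.0). Of these 10, 3 held an NF-Y match, beside 9.8% of all members. Nckap1l was among the 3, and its sequence at chr15:103453631-103453793, plus strand, shows the match in capitals.
Nckap1l: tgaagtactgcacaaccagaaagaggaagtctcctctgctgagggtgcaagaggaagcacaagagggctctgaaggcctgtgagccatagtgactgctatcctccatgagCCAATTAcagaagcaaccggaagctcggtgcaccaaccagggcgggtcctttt
At the other end of CpG content, 13 members had no CpG in the window. Trim30a was the strongest of them at 25.1, followed by F830016B08Rik (22.2), Olfr525 (19.5), Gbp10 (17.7) and Ifit1bl1 (11.97), and Il12rb2 was among the others at 10.3. The printed stretch of Trim30a, chr7:104465194-104465322 on the minus strand, has its IRF match in capitals.
Trim30a: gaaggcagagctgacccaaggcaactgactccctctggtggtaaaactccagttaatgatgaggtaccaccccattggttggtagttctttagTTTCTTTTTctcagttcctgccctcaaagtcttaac

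The shares of regions with a motif match differed between the 2 kinds of promoter. CAGGAAGT, an ETS site without a CpG, lay within 100 bp of the summit in 234 members (15.4%, 13.7% to 17.4%) and in 2.97% (2.62% to 3.36%) of CpG-rich regions. CCGGAAGT, the ETS site with a CpG, had the opposite order, with 1.78% and 9.86%. Of all 21938 most upstream TSSs, 2.47% and 4.35% held them within 100 bp. The CpG content that defines the classes limits motifs with a CpG directly, so only the first of these shares is free of the rule, and base composition differs between the classes for all motifs.

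RUNX (TGTGGTT) was found in 11.4% of members and 1.90% of CpG-rich regions, AP-1 (TGANTCA) in 9.77% and 2.33%, and IRF (AAANNGAAA) in 15.4% and 3.08%. In sequence 1000 bp from the members' summits, which has no such limit on the CpG ratio, they were found in 4.92%, 5.38% and 9.21%, and CAGGAAGT in 2.61%. At least 1 of the 4 motifs was present in 655 members (43.2%, 40.8% to 45.7%) and in 9.83% of CpG-rich regions. Matches lay close to the summit for ETS, at a median of 24.5 bp against 45.5 bp from the centre of the shifted windows, and for RUNX at 31 bp against 52 bp. The medians differed less for IRF, at 33 bp against 39 bp, and for AP-1, at 39 bp against 46 bp. For STAT (TTCNNNGAA), found in 7.39% of members, the distances were 54.5 and 51 bp. Of all most upstream TSSs, 3.08% held RUNX, 4.11% AP-1 and 5.45% IRF.

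CpG-rich regions held some general promoter motifs more often. The GC box (GGGCGGGG) was found in 5.54% of members and 31.6% of CpG-rich regions, NRF1 (GCGCATGC) in 0.396% and 5.06%, YY1 (AANATGGC) in 2.38% and 8.83%, and NF-Y (CCAATNA) in 9.83% and 17.8%. YY1 and NF-Y as searched hold no CpG. TATAAA within 100 bp of the summit had the opposite order, with 6.07% and 2.35%, and the windows shifted by 1000 bp held it in 10.99%. CpG-poor regions away from promoters resembled the members in ETS without CpG (14.7%) and IRF (14.9%), and held more RUNX (15.3%) and AP-1 (14.4%). Members near a TSS, within 100 bp, held IRF in 17.6% and the members farther off in 13.99%, and the intervals overlap (14.8% to 20.9% and 11.9% to 16.4%). The E-box CAGGTG had the highest share of all 24 motifs in members, 17.0% (15.2% to 19.01%), against 10.8% of CpG-rich regions. The windows shifted by 1000 bp held it nearly as often, in 15.7% (14.4% to 17.01%), as did 14.1% of all most upstream TSSs. None of the 24 motifs searched was found in 323 members.

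**Figure D4:**
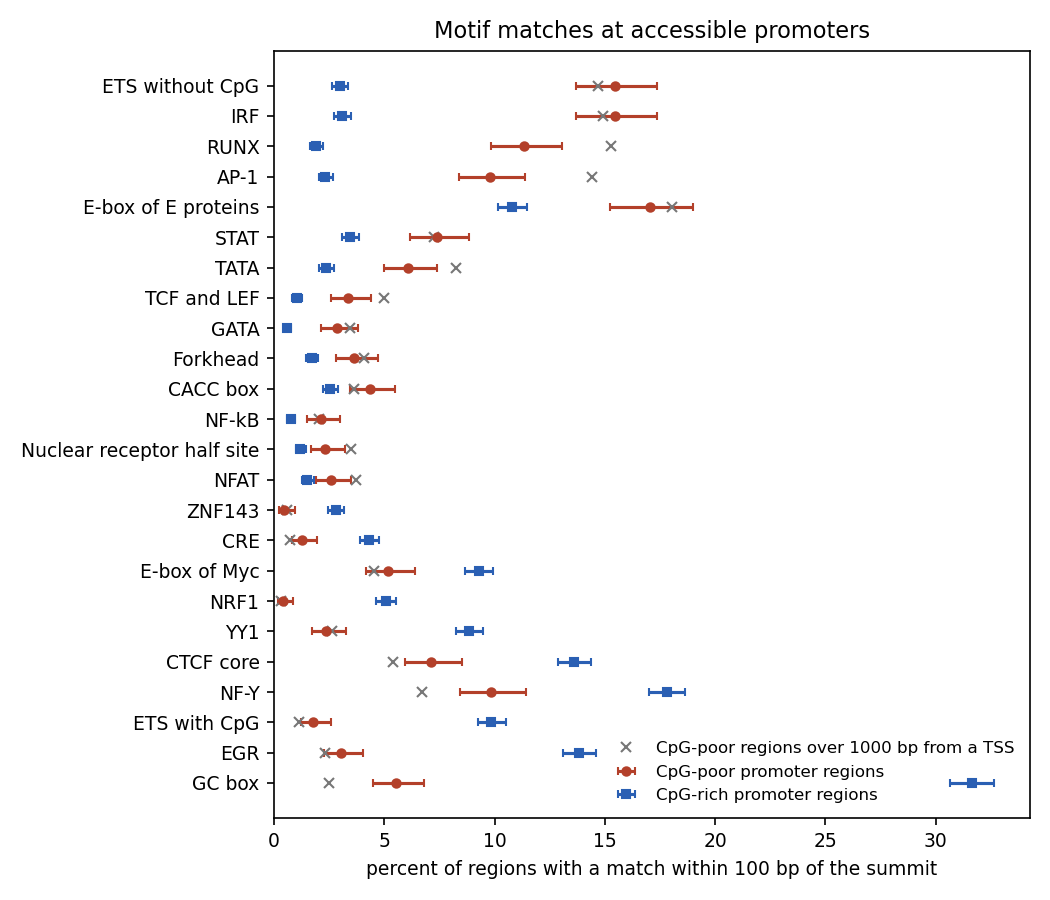
Percent of regions with a match within 100 bp of the summit (x) for each of 24 motifs (y), with 95% Wilson intervals, in CpG-poor and CpG-rich promoter regions and, as crosses, in CpG-poor regions over 1000 bp from a TSS. Motifs are ordered by the difference between the promoter classes, and the first 4 (ETS without CpG, IRF, RUNX and AP-1) are in 9.77% to 15.4% of CpG-poor and at most 3.08% of CpG-rich promoter regions.

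Motif counts were also taken by gene list and by the strength of the region. IRF matches, present in 15.45% of all members, lay in 9 of 13 CpG-poor interferon-response promoters, among them Rsad2, Xaf1, Oasl2, Ifit3 and Isg15. They also lay in 7 of 9 Trim and in 10 of 13 Ifi and Ifit promoters, but in 2 of 20 of the surface receptors (Cd2 and Cd48). Ifit3 is in both the interferon-response and the Ifi and Ifit lists. RUNX matches, present in 11.4% of all members, lay in 4 of 9 costimulatory receptors (Cd28, Havcr2, Tigit and Btla), in 3 of 20 surface receptors, 3 of 18 signalling genes, 1 of 10 cytokines and 0 of 6 receptor complex genes. NF-kB (GGANTTTCC), present in 2.11% of all members, lay in 2 of 10 cytokines (Il16 and Ltb). Of the 24 motifs NF-Y had the largest difference in share by strength, being in 34 of the 151 strongest members (22.5%, 16.6% to 29.8%) and 9 of the 151 weakest (5.96%, 3.17% to 10.9%). CAGGTG, the E-box of E proteins, was in 10.6% (6.63% to 16.5%) and 21.2% (15.4% to 28.4%). Intervals of the E-box overlapped at the 2 ends, as did those of IRF, ETS without CpG, RUNX, AP-1 and all other motifs but NF-Y.

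Genes with a CpG-poor promoter had more accessible regions around them. Of the 962 genes, 59.9% (56.7% to 62.9%) had at least 1 distal region, against 40.5% (39.4% to 41.7%) of the 7583 genes with a CpG-rich strongest promoter region and 16.9% of genes without a promoter region. Means were 1.76 and 0.963 distal regions per gene, and 11.4% and 4.84% had 5 or more. Genes were also compared within 4 bins of territory, the length of sequence nearest to their TSSs, since a wide territory can hold more regions. In the bin of shortest territories 22.9% (17.4% to 29.4%) against 11.2% (9.79% to 12.8%) had a distal region, and in the longest 84.9% (79.8% to 88.9%) against 69.9% (67.8% to 72.0%). The intervals did not overlap in any of the 4 bins.

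**Figure D5:**
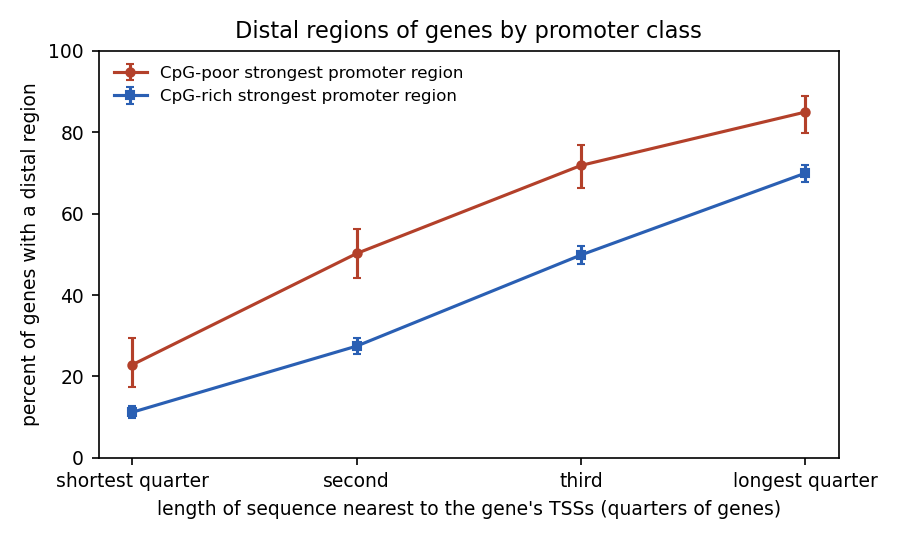
Percent of genes with at least 1 distal region (y, 95% Wilson intervals) by bin of territory length (x), for genes whose strongest promoter region is CpG-poor or CpG-rich. The CpG-poor genes are higher in all 4 bins, from 22.9% against 11.2% to 84.9% against 69.9%.

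The strongest distal region exceeded the promoter region in signal in 62.0% of the CpG-poor genes that had one and in 49.1% of the CpG-rich genes. The median signal value of that distal region was similar, 15.2 in CpG-poor and 15.4 in CpG-rich genes. Among genes with a CpG-poor strongest promoter region, Foxp1, a forkhead factor, had the most distal regions, 22, in a territory of 899 kb, with a promoter signal of 10.5 and a strongest distal signal of 16.4. Dock10 had 14, Nfatc1 13, and Ctla4 and Pik3r1 12 each. Nfatc1 and Ctla4 had weak promoter regions, at 6.17 and 6.24, beside distal regions of up to 14.7 and 16.01. The Nfatc1 summit lay in an intron, 966 bp downstream of the nearest TSS.

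The less stringent pseudoreplicated list of the authors held 3074 CpG-poor promoter regions, of which 1509 (49.1%, 47.3% to 50.9%) overlapped a thresholded region. The share was 82.6% for CpG-rich and 41.2% for CpG-poor regions away from promoters. Those not in the thresholded list were weak, with a median signal value of 5.06 against 11.5.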

How the data were processed

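ATAC-seq was measured in 2 technical libraries of 1 biological replicate of activated regulatory T-cells. Per the labels' accompanying text files, the authors derived 3 peak lists (pseudoreplicated, IDR ranked and IDR thresholded) on mm10 from 1 alignment. Aligner, caller, versions, read shift and IDR threshold: not given in the sources used here. As deposited, peaks carry a signal value in the caller's own unit, whose reference is unstated, and a −log10 p. In the ranked list the deposited score follows from the global IDR.

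The 48668 thresholded peaks were merged where they overlapped by 1 bp or more. TSSs (transcript starts) of 21938 protein-coding genes came from GENCODE M21 and sequence from GRCm38.p6 (mm10) as RefSeq provides it. The CpG ratio was taken from 250 bp on either side of the summit, and motifs were searched on both strands within 100 bp of it, overlapping matches of different motifs being counted for each. Shifted windows were centred 1000 bp on either side. Python 3.11.15, numpy 2.4.6, pandas 2.3.3, matplotlib 3.10.9 and blastn 2.17.0 (E at most 1e-05) were used, and the code was tested on simulated data.

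The regions, the 37 gene lists, 24 motifs and the rule for named genes were chosen with earlier results of these data known, and 5 lists named by pattern (Trim, Ifi and Ifit, Apol, Btn, H2) were added after values were seen. Named were the strongest members, those at the threshold or without CpG, the leading genes of each list, those with the most distal regions, and fixed T cell genes. Regions and genes are not replicates, so only shares, quartiles and Wilson 95% intervals are given. Alternatives covered peak lists, merging, transcripts, promoter and CpG windows, thresholds and distal assignment. Some members of the lists are not reported here by name.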

Additional observations from a re-analysis of the deposited data

How the results depend on the processing

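No alternative reversed a direction: CpG-poor promoter regions stayed weaker and narrower than CpG-rich ones, and 38 of the recomputed main values stayed within the limits set for them (counts of regions within 1.5 times, shares within the Wilson interval of the main value, differences of medians within the half-width of the 95% interval of the members' median) while 55 moved beyond them. The number of CpG-poor promoter regions, 1515, became 3074 with the pseudoreplicated list, 3346 with unmerged peaks, 691 with 1 TSS per gene, 796 with summits within 250 bp, 1004 with summits within 500 bp and 2580 with summits within 2500 bp. Their share of promoter regions, 13.7%, became 20.4 with the pseudoreplicated list, 11.4 with IDR 0.01, 12.9 with unmerged peaks, 10.8 with coding transcripts, 7.67 with 1 TSS per gene, 8.74 with summits within 250 bp, 10.03 with summits within 500 bp, 20.6 with summits within 2500 bp, 14.6 with windows of 500 bp on either side, 11.4 with a threshold of 0.35, 16.2 with a threshold of 0.45 and 12.3 with windows on the TSS. The median signal difference from CpG-rich regions, -4.69, became -7.15 with the pseudoreplicated list, -3.74 with IDR 0.01, -2.35 with unmerged peaks, -3.92 with summits within 250 bp, -4.11 with summits within 500 bp, -5.29 with summits within 2500 bp, -4.32 with windows of 100 bp on either side, -4.18 with windows of 500 bp on either side and -3.803 with windows on the TSS. The median width difference, -328 bp, became -438 with the pseudoreplicated list, -290 with IDR 0.01, -305 with 1 TSS per gene, -277 with summits within 250 bp, -293 with summits within 500 bp, -375 with summits within 2500 bp, -311 with windows of 100 bp on either side and -303 with windows on the TSS. The share with more than 1 summit, 44.95%, became 30.4 with the pseudoreplicated list, 50.2 with IDR 0.01, 49.1 with 1 TSS per gene, 51.1 with summits within 250 bp, 49.8 with summits within 500 bp and 38.8 with summits within 2500 bp. The share of CpG-poor genes with a region, 8.41%, became 11.99 with the pseudoreplicated list, 7.12 with IDR 0.01, 4.75 with summits within 250 bp, 6.17 with summits within 500 bp, 12.4 with summits within 2500 bp, 9.27 with windows of 100 bp on either side, 7.14 with a threshold of 0.35 and 9.602 with a threshold of 0.45. The share of genes with a distal region, 59.9%, became 72.8 with the pseudoreplicated list, 51.2 with IDR 0.01, 64.6 with summits within 250 bp, 63.2 with summits within 500 bp, 54.8 with summits within 2500 bp and 55.1 with distal regions within 20 kb. The values for genes with a CpG-rich promoter stayed above (region at the TSS, 63.1% to 82.4%) or below (distal region, at most 59.0%) those of CpG-poor genes under each of these settings. In every setting tried, 14 of 24 motifs were more frequent in CpG-poor than in CpG-rich promoter regions. The number of lists above the share of all genes was 20 and varied from 19 to 22.

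No paired analysis was possible because the lists hold no value per library, and for the same reason no library was left out. The causes of these shifts were not tested. Depth and the scale of the signal value are unknown, so a promoter without a region was not detected and is not shown to be closed. The nearest-TSS rule gives a region to 1 gene only, and many members depend on minor annotated TSSs.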
